A study of Mus musculus with 10 samples.

Results

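The visual cycle genes described here are the 10 rows of the count table whose gene name is Rpe65, Lrat, Rdh5, Rgr, Stra6, Rlbp1, Rdh12, Rdh8, Abca4 or Rbp3, out of 35275 genes in the table. All 10 were among the 17435 genes that passed the filter on low counts. They were divided by the cell type in which each works: Rpe65, Lrat, Rdh5, Rgr and Stra6 belong mainly to the retinal pigment epithelium, and Rlbp1, Rdh12, Rdh8, Abca4 and Rbp3 to Müller glia and photoreceptors, although Rlbp1 is also made by the pigment epithelium and Rgr also by Müller glia.

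RNA was sequenced from retinas of C57BL/6 mice aged 10 to 12 weeks. The 5 vigabatrin libraries (title numbers 2344, 2347, 2349, 2428 and 2429) came from animals that received 140 mg/kg/day of vigabatrin through a subcutaneous osmotic pump over 11 days. The 5 vehicle libraries (832, 835, 1580, 1582 and 2345) carry the treatment label Vehicle, while their titles call them untreated. Vigabatrin, used against epilepsy, blocks GABA transaminase irreversibly and can cause visual field loss. Since nothing in the labels ties each library to its own animal, the p-values refer to variation among these libraries, which may be partly technical.

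The visual cycle returns the chromophore of the visual pigments to its light-sensitive form. Light turns 11-cis-retinal into all-trans-retinal in the photoreceptor, where the transporter ABCA4 clears it from the disc membrane and the dehydrogenases RDH8 and RDH12 reduce it to retinol. The carrier protein IRBP, encoded by Rbp3, takes retinol across the space between photoreceptors and pigment epithelium. There LRAT esterifies it, RPE65 converts the ester to 11-cis-retinol, and RDH5 oxidises this to 11-cis-retinal, which the binding protein CRALBP, encoded by Rlbp1, holds. STRA6 takes up retinol from the blood, and RGR is an opsin-like protein of the pigment epithelium and Müller glia. The pigment epithelium is a separate layer behind the neural retina, and how much of it comes away with a dissected retina can vary.

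The promoters of 4 members are shown because the levels below fall into an epithelial and a photoreceptor pattern, and these are the upstream windows of members of each. Each is the 250 bases before the transcription start in RefSeq (GRCm38.p6, the same assembly as mm10), read 5′ to 3′ on the gene's strand. Capitals mark TAATCC or its reverse complement GGATTA, the core sequence bound by the photoreceptor factor CRX. Rpe65 lies at chr3:159598931-159599180 (plus strand), Lrat at chr3:82903975-82904224 (minus strand), Rgr at chr14:37049015-37049264 (minus strand) and Rbp3 at chr14:33953753-33954002 (plus strand).
Rpe65: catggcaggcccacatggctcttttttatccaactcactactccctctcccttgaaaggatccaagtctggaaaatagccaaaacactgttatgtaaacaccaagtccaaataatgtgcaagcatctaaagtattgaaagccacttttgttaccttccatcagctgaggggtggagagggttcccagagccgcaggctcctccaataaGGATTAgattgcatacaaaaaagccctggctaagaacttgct
Lrat: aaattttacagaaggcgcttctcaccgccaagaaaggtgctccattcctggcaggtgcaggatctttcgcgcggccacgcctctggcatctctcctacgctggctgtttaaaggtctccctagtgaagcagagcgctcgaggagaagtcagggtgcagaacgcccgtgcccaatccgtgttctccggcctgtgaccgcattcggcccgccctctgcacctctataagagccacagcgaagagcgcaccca
Rgr: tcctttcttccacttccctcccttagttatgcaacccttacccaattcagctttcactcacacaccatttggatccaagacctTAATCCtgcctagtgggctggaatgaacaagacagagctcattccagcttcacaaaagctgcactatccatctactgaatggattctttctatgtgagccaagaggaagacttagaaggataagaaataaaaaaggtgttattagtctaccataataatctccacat
Rbp3: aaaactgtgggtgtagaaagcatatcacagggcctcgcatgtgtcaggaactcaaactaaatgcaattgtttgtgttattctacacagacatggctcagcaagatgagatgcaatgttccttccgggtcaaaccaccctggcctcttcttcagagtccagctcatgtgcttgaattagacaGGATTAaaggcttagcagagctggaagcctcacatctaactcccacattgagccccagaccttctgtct

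TAATCC was found on either strand in 4 of the 10 members, with its first base 42 bases before the start in Rpe65, 167 in Rgr, 58 in Abca4 and 69 in Rbp3. It occurred in 6.25% of 32851 windows of this length. The match was therefore present in a pair of epithelial members and a pair of photoreceptor members, and it did not follow the division by cell type. The E-box letters CANNTG were found in 9 of 10 members against 66.2% of all windows. Of its special forms, CATGTG, which the pigment cell factors MITF and TFEC can bind and which is contained in CANNTG, was found in 3 of 10 members (Rpe65, Rlbp1 and Rbp3) against 12.3%. CACGTG was found in 0 of 10 members against 6.02%. Stra6 has 4 start sites in the RefSeq table, so 13 windows stood for the 10 members. These matches describe letters in the windows, and binding was not measured.

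Total counts ranged from 36056135 to 54052502 per library. Gnat1, which encodes the rod transducin subunit, had between 9963 and 10945 CPM in vigabatrin libraries and between 10080 and 11454 CPM in vehicle libraries, so each library carried a defining transcript of rod-rich retina. CPM here is the count scaled to a common library size after TMM normalisation. Other tissues of the eye were present unevenly in both groups. The 11 lens genes took 1.89% of the counts in vigabatrin 2344 and 1.67% in vigabatrin 2429, against 1.84% in vehicle 835 and 1.23% in vehicle 1582, and at most 0.0987% in the other libraries. The lens gene Lim2 was at 0 in all 10 libraries. None of the 11 other pigment epithelium markers was at 0 in any library, and their summed level ranged from 24.9 to 778 CPM in vigabatrin libraries and from 36.5 to 1584 CPM in vehicle libraries. The highest sums came mostly from the melanin genes among them, with 757 CPM in vigabatrin 2344 and 1435 CPM in vehicle 835.

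No member passed the test between vigabatrin and vehicle. Of the 10 members, 0 had an adjusted p under 0.05 in edgeR's quasi-likelihood test, against 1 of 17435 genes (0.00574%) by the same test. DESeq2's Wald test called 0 members and 86 of 15771 genes (0.545%), and limma-voom called 0 members and 3 genes (0.0172%). At an unadjusted p under 0.05, 4 of 10 members were lower after vigabatrin (Rpe65, Lrat, Rgr and Stra6), where 3.69% of all tested genes were lower. This count rested on single libraries: only Lrat remained under 0.05 without vigabatrin 2349, vigabatrin 2428 or vehicle 832. It was 2 members without vigabatrin 2344 or 2429, 3 without vehicle 835 (Lrat, Rdh12 and Rdh8) and at most 5, without vehicle 1580 or 2345. By limma-voom the members under 0.05 before adjustment were instead Stra6 (unadjusted p = 0.0311, adjusted p = 0.389), Rdh12 (0.00856 and 0.294) and Rdh8 (0.00823 and 0.293). Lrat had an unadjusted p of 0.0519, Rgr of 0.0891 and Rpe65 of 0.118 by limma-voom (adjusted p = 0.446, 0.516 and 0.557). The 4 members under 0.05 in edgeR vary together across libraries, as described below, and do not count as separate observations. The groups overlapped for all 10 members, while 258 of the tested genes (1.48%) had groups that did not overlap. The 5 epithelial members all had a lower fitted level after vigabatrin, with a median log2 fold change of -2.42, and the Müller and photoreceptor members had 1 higher and 4 lower with a median of -0.02. Over all tested genes 8618 were higher and 8817 lower.

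**Figure D1:**
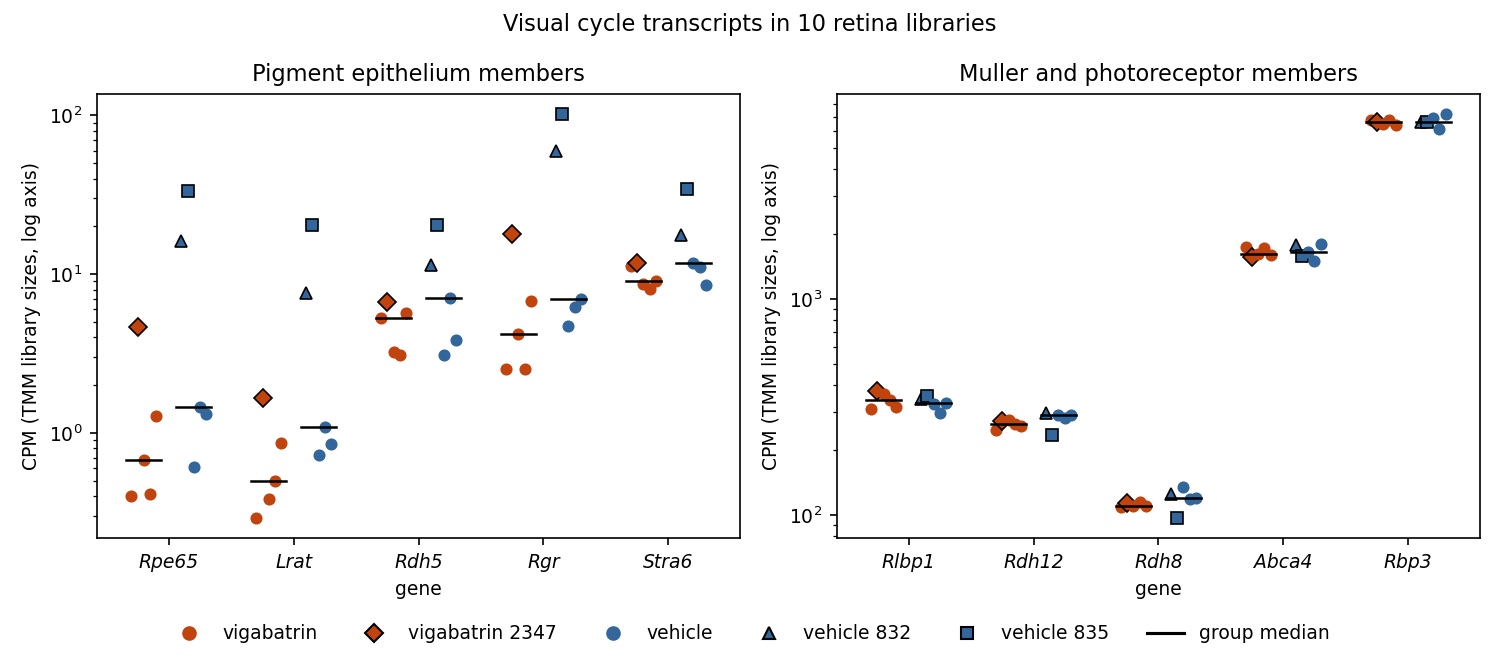
Level of each visual cycle gene in CPM on a log axis, with a point for each library, vigabatrin at the left of each pair and vehicle at the right, and a line at each group's median. The 5 epithelial members (left panel) spread widely and are highest in vehicle 835 and vehicle 832, whereas the Müller and photoreceptor members (right panel) stay within a narrow band.

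Per kilobase of the gene length given in the table, the order of levels was Rbp3 (1261 CPM per kb, mean over 10 libraries), Abca4 (228), Rlbp1 (153), Rdh12 (98.4), Rdh8 (79.4), Rgr (12.9), Rdh5 (5.26), Stra6 (4.30), Rpe65 (3.79) and Lrat (0.640). The first 5 kept this order in 10 of 10 libraries, and Rdh8 was above every epithelial member in 10 of 10. Lrat was the lowest of the epithelial members in 10 of 10 libraries. Rgr was above Rpe65 in each library, with a CPM ratio of 3.05 to 7.71 and gene lengths of 1659 and 1602 bases. The other places among Rgr, Rdh5, Stra6 and Rpe65 changed between libraries, and Rgr led them in 4 of 10. The median of Rpe65 was 0.811 CPM per kb, below Rdh5 (4.15) and Stra6 (3.62). Its highest library, vehicle 835, had 21.0 CPM per kb, above the highest of Rdh5 (15.4) and Stra6 (11.2). What the deposited gene length covers is not stated, which bears on levels compared between genes.

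Rpe65 encodes the isomerohydrolase that makes 11-cis-retinol. It had 0.404, 4.69, 0.674, 0.411 and 1.27 CPM in vigabatrin 2344, 2347, 2349, 2428 and 2429, against 16.2, 33.6, 0.616, 1.45 and 1.32 CPM in vehicle 832, 835, 1580, 1582 and 2345. Vehicle 832 and 835 were far above every other library, vigabatrin 2347 came next, and the remaining 4 vigabatrin and 3 vehicle libraries lay between 0.404 and 1.45 CPM. The mean was 1.49 ± 1.82 CPM after vigabatrin and 10.6 ± 14.4 CPM in vehicle (SD, n = 5 each). The log2 fold change was -2.86 ± 1.13 (SE; 95% interval -5.35 to -0.37; edgeR, unadjusted p = 0.0279, adjusted p = 0.615). Vehicle 832 and 835 held 82.1% of the Rpe65 CPM summed over the 10 libraries. Without these 2 libraries the log2 fold change was 0.38 ± 0.79 (SE), and without vehicle 835 alone it was -1.75. Here and for the other members, vehicle 832 and 835 were left out together after their values were seen. Those fits describe the libraries and are not a test. Rpe65 (ENSMUSG00000028174) lies on the plus strand of chromosome 3, from 159599233 to 159624799 in mm10.

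Lrat encodes the acyltransferase that stores retinol as esters. The same 5 vigabatrin libraries had 0.292, 1.67, 0.385, 0.497 and 0.868 CPM, against 7.58, 20.3, 0.726, 1.10 and 0.856 CPM in the 5 vehicle libraries in the same order. The libraries ranked at the top as for Rpe65, with vehicle 835 and 832 highest and vigabatrin 2347 after them. Vehicle 1580, 1582 and 2345 overlapped the vigabatrin libraries. Its log2 fold change was -3.06 ± 0.97 (SE; 95% interval -5.20 to -0.92; edgeR, unadjusted p = 0.00932, adjusted p = 0.528). It was -0.28 ± 0.50 (SE) without vehicle 832 and 835 and -1.82 without vehicle 835 alone. Lrat was also the shallowest member, with 13 to 957 counts per library. Lrat (ENSMUSG00000028003) lies on the minus strand of chromosome 3, from 82892579 to 82903973.

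Rgr followed Rpe65 most closely of all members (Pearson r = 0.996 of log2 CPM over 10 libraries, given as a description). It had 2.51, 17.9, 4.20, 2.53 and 6.79 CPM in the vigabatrin libraries, against 59.8, 102.4, 4.75, 6.20 and 6.98 CPM in the vehicle libraries. Vehicle 835 and 832 were again the highest and vigabatrin 2347 came after them, and the other 7 libraries lay between 2.51 and 6.98 CPM. The log2 fold change was -2.42 ± 0.94 (SE; 95% interval -4.48 to -0.35; edgeR, unadjusted p = 0.0259, adjusted p = 0.611), against 0.18 ± 0.61 (SE) without vehicle 832 and 835 and -1.53 without vehicle 835 alone. The ratio of Rgr to Rpe65 was between 3.05 and 7.71 across the 10 libraries while Rpe65 itself varied 83.1-fold. This ratio was lowest in the libraries highest in Rpe65, with 3.05 in vehicle 835, 3.68 in vehicle 832 and 3.83 in vigabatrin 2347. Rgr (ENSMUSG00000021804) lies on the minus strand of chromosome 14, from 37037490 to 37048964.

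Rdh5 encodes the 11-cis-retinol dehydrogenase. Its levels were 5.30, 6.70, 3.23, 3.11 and 5.72 CPM in the vigabatrin libraries, against 11.3, 20.5, 3.10, 7.10 and 3.84 CPM in the vehicle libraries. Vehicle 835 and 832 led here too, but the library-to-library range was 6.61-fold, narrower than for Rpe65. Its log2 fold change was -0.93 ± 0.47 (SE; 95% interval -1.97 to 0.10; edgeR, unadjusted p = 0.0725, adjusted p = 0.709), and it was 0.04 ± 0.33 (SE) without vehicle 832 and 835 and -0.41 without vehicle 835 alone. Rdh5 (ENSMUSG00000025350) lies on the minus strand of chromosome 10, from 128913593 to 128922888. In GENCODE M21 it shares 720 of its 2809 exon bases with Bloc1s1 on the same strand, so some reads may have been assigned to either gene or to neither. The other 9 members share 0 exon bases with any overlapping gene.

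Stra6 encodes the membrane receptor for the retinol carrier of the blood. It had 11.2, 11.7, 8.66, 8.04 and 9.12 CPM in the vigabatrin libraries, against 17.6, 34.5, 11.8, 11.0 and 8.58 CPM in the vehicle libraries. Vehicle 835 and 832 stood above the rest, whereas vigabatrin 2347 lay within the other libraries. The log2 fold change was -0.78 ± 0.33 (SE; 95% interval -1.51 to -0.05; edgeR, unadjusted p = 0.0384, adjusted p = 0.653), against -0.10 ± 0.15 (SE) without vehicle 832 and 835 and -0.33 without vehicle 835 alone. Stra6 (ENSMUSG00000032327) lies on the plus strand of chromosome 9, from 58063788 to 58153996.

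Rdh5 and Stra6 were less uneven across libraries than Rpe65, with 6.61-fold and 4.29-fold between their lowest and highest library against 83.1-fold. In vigabatrin 2344 the ratio of Stra6 to Rpe65 was 27.8 and that of Rdh5 to Rpe65 was 13.1, against 1.03 and 0.611 in vehicle 835. In the 4 libraries with under 1 CPM of Rpe65 (vigabatrin 2344, 2349 and 2428 and vehicle 1580), Rdh5 was still at 3.10 to 5.30 CPM and Stra6 at 8.04 to 11.8 CPM. Which cells held this RNA was not tested.

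The other epithelial markers divided into separate patterns across the libraries. Ttr, which encodes the retinol and thyroxine carrier transthyretin, had 2.02, 23.7, 3.54, 2.18 and 8.68 CPM in the vigabatrin libraries, against 68.5, 111.5, 6.22, 7.49 and 8.83 CPM in the vehicle libraries. Slc16a8, an epithelial lactate transporter, had between 2.65 and 5.18 CPM in vigabatrin libraries, and it had 11.6 and 21.2 CPM in vehicle 832 and 835 and at most 3.72 CPM in the other vehicle libraries. Both were highest in the 2 libraries that were highest for the epithelial members, and in vigabatrin 2347 after those. Best1 and Rrh, which also mark the epithelium, did not follow: Best1 was at 0.520 to 0.951 CPM in vigabatrin and 0.572 to 0.966 CPM in vehicle libraries, and Rrh at 13.5 to 16.8 and 13.8 to 15.4 CPM in vigabatrin and vehicle libraries.

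The melanin genes followed another order of libraries. Pmel, which forms the fibrils of the pigment granule, had 223, 30.5, 0.712, 2.18 and 23.7 CPM in the vigabatrin libraries, against 16.1, 401.5, 4.49, 157 and 2.46 CPM in the vehicle libraries. Vehicle 835, vigabatrin 2344 and vehicle 1582 were the highest, and these are 3 of the 4 lens-rich libraries. Vigabatrin 2344, with 223 CPM of Pmel, had the lowest Rpe65 of all libraries. The ratio of Pmel to Rpe65 ranged from 0.989 to 552.5, against 3.32 to 10.1 for the ratio of Ttr to Rpe65. Melanin genes are also expressed by melanocytes of the choroid and by the pigmented cells of the ciliary body and iris, and which cells supplied them was not tested.

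**Figure D2:**
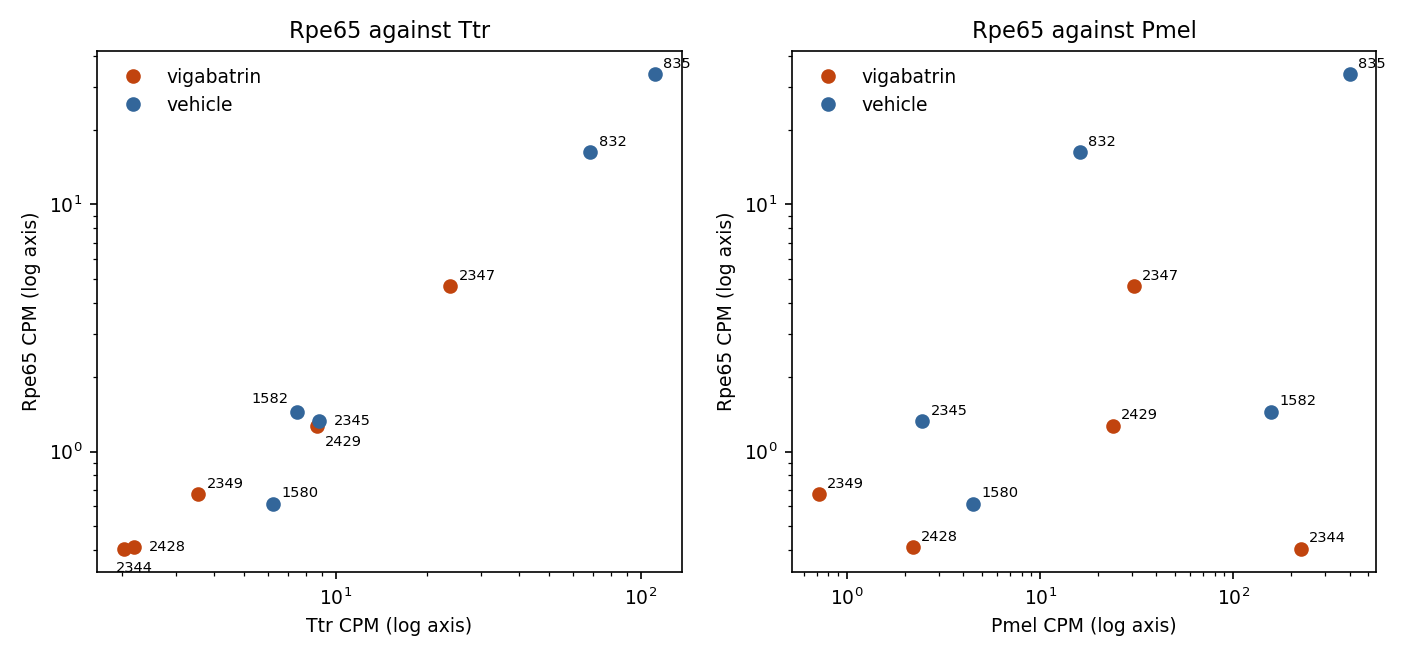
Rpe65 in CPM against Ttr (left) and against Pmel (right), all axes logarithmic, with a point for each library marked by its title number and coloured by group. Rpe65 follows Ttr through the 10 libraries, while vigabatrin 2344 has 223 CPM of Pmel with 0.404 CPM of Rpe65.

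Against the mean log2 CPM of all 11 other epithelial markers, only Rdh5 of the 10 members passed the permutation test (Pearson r = 0.83, p = 0.00229, adjusted p = 0.0229 over 10 members; Spearman rank correlation 0.758, p = 0.0152, adjusted p = 0.152). Its r was 0.681 without the 2 libraries farthest from the median (vigabatrin 2349 and vehicle 835) and 0.888 within the 6 libraries with title numbers above 2000. Without vehicle 835, r was 0.731 and the adjusted p 0.286, so the call rests on that library. Rpe65 had r = 0.563 (adjusted p = 0.187), Lrat 0.562 (0.187), Rgr 0.524 (0.204) and Stra6 0.705 (0.0605) in the same permutation test. Of those 11 markers 7 are melanin genes, and the mean follows their order of libraries.

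Against the mean of the 4 epithelial markers without melanin genes (Best1, Ttr, Rrh and Slc16a8), all 5 epithelial members passed. Best1 and Rrh varied little and did not follow the members, so this mean moved mainly with Ttr and Slc16a8. The Pearson r was 0.991 for Rpe65, 0.984 for Lrat, 0.99 for Rgr, 0.9 for Rdh5 and 0.875 for Stra6, with adjusted permutation p between 5e-05 and 0.00398. Their Spearman rank correlation was 0.915, 0.952, 0.952, 0.770 and 0.588, with adjusted p of 0.00133, 0.0006, 0.0006, 0.0309 and 0.163, so Stra6 passed by r alone. Vehicle 832 and 835 stand apart on this measure. Among the other 8 libraries r was 0.960 for Rpe65, 0.946 for Lrat and 0.958 for Rgr, against 0.590 for Rdh5 and 0.386 for Stra6. The relation of Stra6 with these markers therefore rests on vehicle 832 and 835, and that of Rdh5 was weaker without them. None of the Müller and photoreceptor members passed, with r between -0.262 and 0.377.

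**Figure D3:**
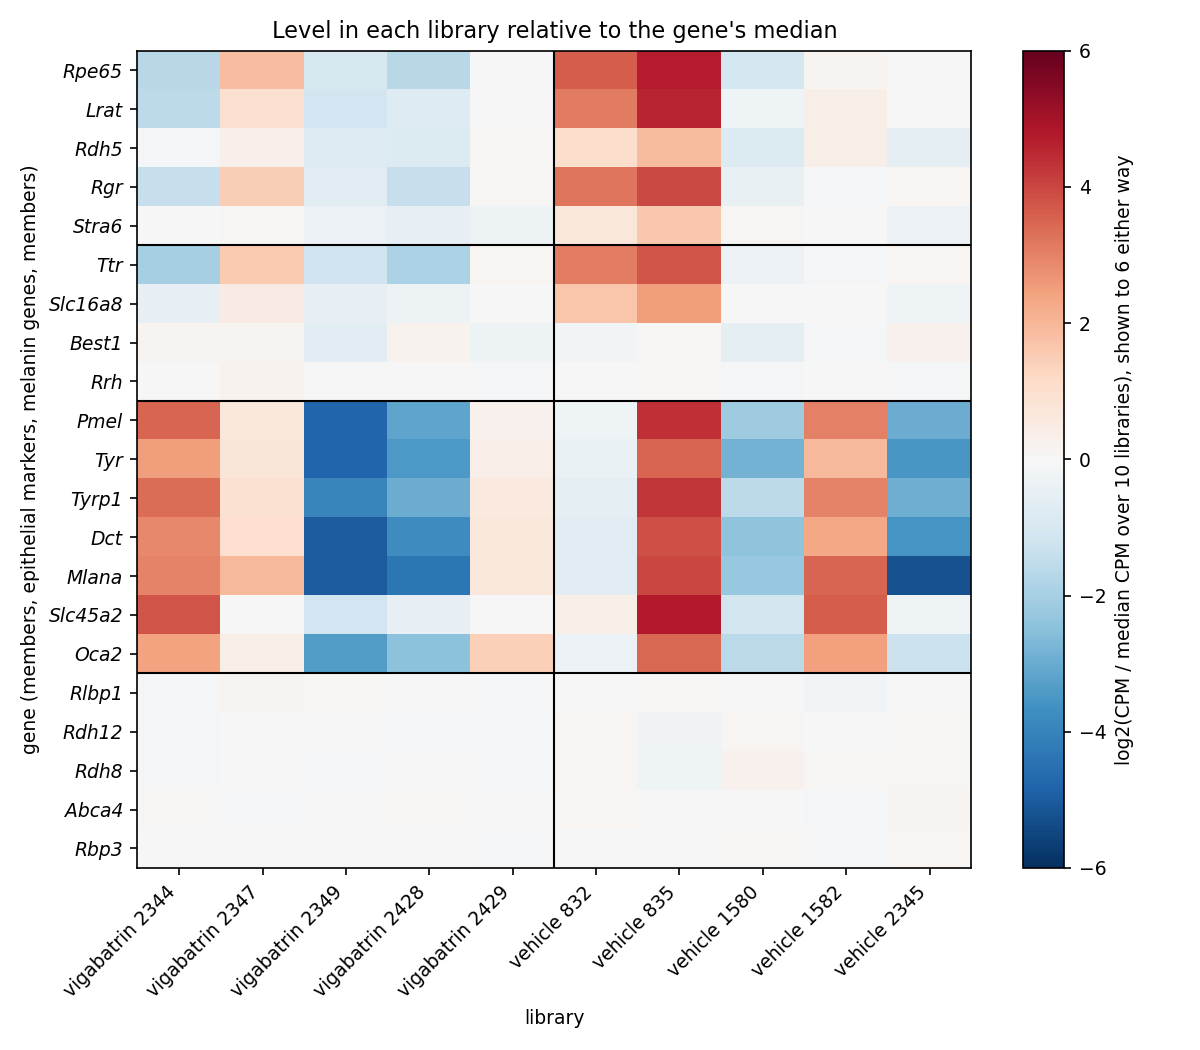
Level of each gene in each library relative to the gene's own median over 10 libraries, on a log2 scale from blue (low) to red (high), with vigabatrin libraries at the left and vehicle libraries at the right. The rows are, from the top, the epithelial members, 4 epithelial markers, 7 melanin genes and the Müller and photoreceptor members. Ttr and Slc16a8 share the columns in which Rpe65, Lrat and Rgr are high, whereas the melanin genes are high in vigabatrin 2344 and vehicle 1582 as well as vehicle 835.

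The group difference of the epithelial members moved with these markers. Of the 11 other epithelial markers 9 were lower and 2 higher after vigabatrin, with a median log2 fold change of -1.03 and 0 called by edgeR. Before adjustment 2 of them were under 0.05 in edgeR, Ttr (-2.35, unadjusted p = 0.0347) and Slc16a8 (-1.34, unadjusted p = 0.0252). Of all tested genes 3.69% were lower at that level. With the mean log2 CPM of Ttr and Slc16a8 as a term in the edgeR fit, added after the values were seen, the log2 fold changes were 0.24 ± 0.21 (SE) for Rpe65, -0.24 ± 0.22 for Lrat, 0.15 ± 0.12 for Rgr, 0.14 ± 0.30 for Rdh5 and -0.05 ± 0.23 for Stra6. With the 11-marker level as the term they were -1.89, -2.05, -1.63, -0.46 and -0.50 in the same order of genes. Keratin genes of surface epithelia were also high in the libraries that led the epithelial members: Krt5 had 0.125 to 0.628 CPM in vigabatrin libraries, against 4.09 and 2.95 CPM in vehicle 832 and 835 and 0.359 to 0.659 CPM in the other vehicle libraries. Of the 5 listed cornea genes 4 were tested and 0 called. The keratins Krt5, Krt12 and Krt15 were lower after vigabatrin at an unadjusted p under 0.05 (edgeR), where 3.69% of all tested genes were lower. Aldh3a1 did not follow them, with a log2 fold change of -0.05 (edgeR, unadjusted p = 0.973). It had 29.3 and 23.4 CPM in vigabatrin 2344 and 2429, 24.2 and 26.8 CPM in vehicle 835 and 1582, and 4.47 CPM in vehicle 832. The summed level of the 4 genes was 0.822 to 30.6 CPM in vigabatrin libraries and 1.08 to 32.0 CPM in vehicle libraries, and Aldh3a1 made up most of the highest sums. The part of such tissue in the result was not tested. In bulk RNA, fewer epithelial cells in a sample and less of a transcript per epithelial cell cannot be told apart, and a term made of epithelial transcripts would remove either.

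Title numbers and treatment were largely confounded. All 5 vigabatrin libraries have numbers above 2000 and only vehicle 2345 does among the vehicle libraries. Vehicle 832 and 835, the libraries highest in the epithelial members, have the lowest numbers. A split at 2000 puts them together with vehicle 1580 and 1582, which had 0.616 and 1.45 CPM of Rpe65. Vehicle 2345 had 1.32 CPM of Rpe65, 0.856 of Lrat, 6.98 of Rgr, 3.84 of Rdh5 and 8.58 of Stra6, all within the range of the vigabatrin libraries. With number range as a term the log2 fold changes were 0.15 ± 1.94 (SE) for Rpe65, -0.22 ± 1.63 for Lrat, -0.05 ± 1.54 for Rgr, 0.33 ± 0.79 for Rdh5 and 0.18 ± 0.52 for Stra6. What the numbers stand for is not given in the labels. Number range and treatment could be separated only through that vehicle library.

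**Figure D4:**
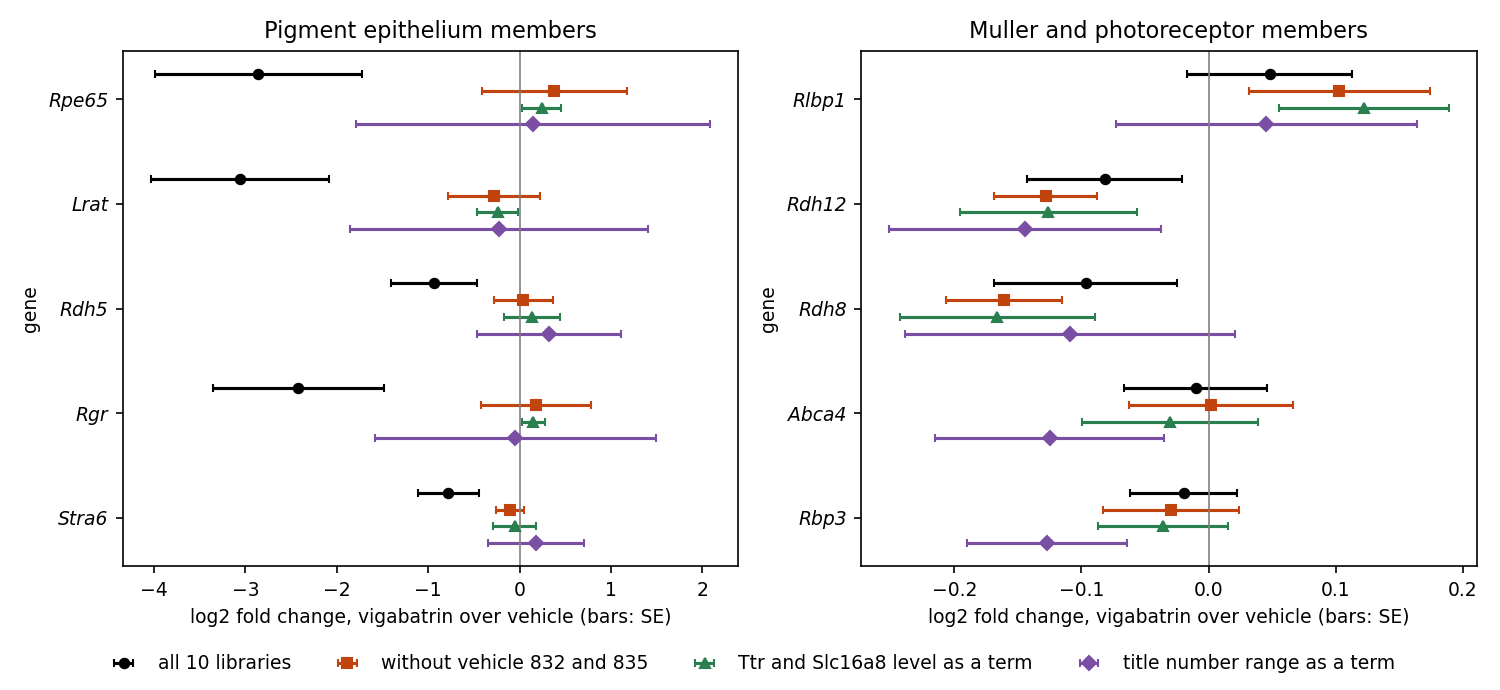
Log2 fold change of each member, vigabatrin over vehicle, with bars of 1 standard error, from all 10 libraries and under 3 alternatives; the right panel has its own, much narrower axis. The epithelial members lie below 0 with all libraries and near 0 under the alternatives, with the widest bars for the title number range, and Rdh12 and Rdh8 lie below 0 in all 4 fits.

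Rlbp1, whose product CRALBP binds 11-cis retinoids in Müller glia and pigment epithelium, had 310.5, 375, 365, 341 and 317 CPM in the vigabatrin libraries, against 344, 354, 328, 295 and 331 CPM in the vehicle libraries. The groups overlapped throughout. Its mean was 342 ± 28.5 CPM after vigabatrin and 330.4 ± 22.3 CPM in vehicle (SD, n = 5 each), with a log2 fold change of 0.05 ± 0.06 (SE; 95% interval -0.09 to 0.19; edgeR, adjusted p = 0.917). Vehicle 832 and 835, the libraries highest in the epithelial members, lay within the range of the vigabatrin libraries for Rlbp1, which the epithelium also makes. Rlbp1 (ENSMUSG00000039194) lies on the minus strand of chromosome 7, from 79374871 to 79387027.

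Müller glia markers differed in direction. Of 10 markers 5 were higher and 5 lower, with 0 called by edgeR. At an unadjusted p under 0.05 there were 5, with 3 higher and 2 lower. By the same test 641 of 17435 tested genes were higher and 643 lower at that level. Sox9, a transcription factor of Müller glia, had 36.4 ± 1.37 CPM after vigabatrin and 27.4 ± 5.48 CPM in vehicle (edgeR, unadjusted p = 0.00561, adjusted p = 0.501), and Glul, the glutamine synthetase, 2569 ± 135 and 2838 ± 161 CPM after vigabatrin and in vehicle (unadjusted p = 0.0144, adjusted p = 0.570; SD, n = 5 each). The other 3 were Slc1a3, a glutamate transporter, with a log2 fold change of 0.15 (edgeR, unadjusted p = 0.0231, adjusted p = 0.611), Aqp4, a water channel, with 0.11 (0.0382 and 0.652) and Car14, a carbonic anhydrase, with -0.47 (0.0208 and 0.605).

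Abca4 encodes the transporter that flips retinal adducts out of the outer segment disc. It had 1737, 1571, 1621, 1729.9 and 1605 CPM in the vigabatrin libraries, against 1785, 1584, 1649.9, 1499 and 1803 CPM in the vehicle libraries. The vehicle libraries held both the lowest and the highest value. The log2 fold change was -0.01 ± 0.06 (SE; 95% interval -0.13 to 0.11; edgeR, adjusted p = 0.985). Abca4 (ENSMUSG00000028125) lies on the plus strand of chromosome 3, from 122044443 to 122180061.

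Rbp3, the most abundant member, encodes the retinoid carrier of the matrix around the photoreceptors. It had 6775, 6608, 6486, 6768 and 6394 CPM in the vigabatrin libraries, against 6625, 6632, 6875, 6134 and 7216 CPM in the vehicle libraries. The vigabatrin libraries lay inside the range of the vehicle libraries. The log2 fold change was -0.02 ± 0.04 (SE; 95% interval -0.11 to 0.07; edgeR, adjusted p = 0.949). Abca4 and Rbp3 varied together (r = 0.773 over 10 libraries, a description), and the ratio of Rbp3 to Abca4 stayed between 3.71 and 4.21. Rbp3 (ENSMUSG00000041534) lies on the plus strand of chromosome 14, from 33954022 to 33964216.

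Rdh12 and Rdh8, the dehydrogenases that reduce all-trans-retinal in the inner and outer segments, were each lowest in a vehicle library and otherwise lower after vigabatrin. Rdh12 had 248, 272, 274, 263 and 259 CPM in the vigabatrin libraries, against 295, 235, 291, 281 and 291 CPM in the vehicle libraries. Vehicle 835 was the lowest of all 10 libraries, and the other 4 vehicle libraries were above all 5 vigabatrin libraries. Over all libraries the log2 fold change was -0.08 ± 0.06 (SE; 95% interval -0.22 to 0.05; edgeR, unadjusted p = 0.207, adjusted p = 0.812). Rdh12 (ENSMUSG00000021123) lies on the plus strand of chromosome 12, from 79208914 to 79222665.

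Rdh8 had 108, 114, 109.8, 115 and 109.8 CPM in the vigabatrin libraries, against 125, 96.6, 134, 119 and 120.0 CPM in the vehicle libraries. Here too vehicle 835 was the lowest library and the other 4 vehicle libraries were above every vigabatrin library. The log2 fold change was -0.10 ± 0.07 (SE; 95% interval -0.25 to 0.06; edgeR, unadjusted p = 0.206, adjusted p = 0.811). Rdh8 (ENSMUSG00000053773) lies on the plus strand of chromosome 9, from 20818504 to 20826163. Rdh12 and Rdh8 varied together (r = 0.903), and the ratio of Rdh12 to Rdh8 stayed between 2.17 and 2.50.

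Without vehicle 835 the log2 fold changes were -0.14 ± 0.04 (SE) for Rdh12 and -0.16 ± 0.04 for Rdh8 (edgeR, unadjusted p = 0.00351 and 0.00197, adjusted p = 0.383 and 0.326), so neither passed the threshold. For both, the 5 vigabatrin libraries then did not overlap the 4 vehicle libraries, which held for 263 of 17435 tested genes (1.51%) in the lower direction. Vehicle 835 was left out here after its values were seen, so this describes the libraries and is not a test. Vehicle 835 was also the lowest library for Rdh11 (32.0 CPM, against 40.6 to 44.3 CPM in vigabatrin and 42.3 to 46.7 CPM in the other vehicle libraries) and for Dhrs3 (77.7 CPM), short-chain dehydrogenases that can likewise reduce retinal. Rdh10 (73.7 CPM), Rdh14 (18.5 CPM) and Rdh1 (2.08 CPM) did not share this, and vehicle 835 was their highest library. Rdh13 was lowest in vehicle 1582 (32.9 CPM), with vehicle 835 next (33.2 CPM). Vehicle 835 had 1.84% of its counts in lens genes and the highest level of the epithelial members. The part of these in its low values was not tested. Vehicle 1580, which had the highest Rdh8, also mattered: without it the log2 fold change of Rdh8 was -0.05.

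**Figure D5:**
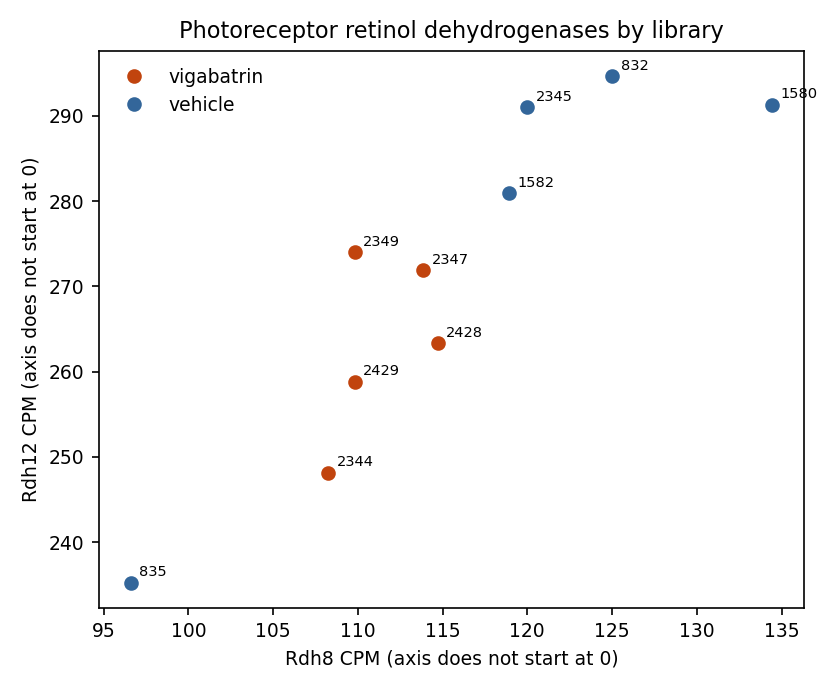
Rdh12 against Rdh8 in CPM, with a point for each library marked by its title number; neither axis starts at 0. The 5 vigabatrin libraries lie between vehicle 835 at the lower left (235 and 96.6 CPM) and the other 4 vehicle libraries at the upper right.

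Rod markers showed the same direction as Rdh12 and Rdh8 without passing the test. Of 10 rod markers 1 was higher and 9 were lower after vigabatrin, with a median log2 fold change of -0.07 and 0 called. Sag, the rod arrestin, had 3433 ± 150.3 CPM after vigabatrin and 3969 ± 190.1 CPM in vehicle (SD, n = 5 each; log2 fold change -0.21, edgeR, unadjusted p = 0.000482, adjusted p = 0.311). The summed level of the 10 markers ranged from 59612 to 65436 CPM in vigabatrin libraries and from 60988 to 66617 CPM in vehicle libraries. Of 10 cone markers 5 were higher and 5 lower, with a median log2 fold change of -0.01. Whether Rdh12 and Rdh8 differed from other rod transcripts was not tested.

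Other retinoid genes gave no called difference. Of 22 listed genes of retinoid transport and metabolism, 20 were in the table and 19 were tested: 7 were higher, 12 lower and 0 called by edgeR, with a median log2 fold change of -0.05. Only Rdh1, a dehydrogenase of retinol, had an unadjusted p under 0.05 (1.05 ± 0.154 CPM after vigabatrin and 1.43 ± 0.415 CPM in vehicle, SD, n = 5 each; adjusted p = 0.666). Scarb1, a receptor that takes up carotenoids, had a log2 fold change of -0.07 (adjusted p = 0.731), and Rdh13, a mitochondrial dehydrogenase, 0.05 (adjusted p = 0.860).

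The genes whose levels were most like each member across the 10 libraries were listed as a description, by Pearson r of log2 CPM among genes of at least 1 CPM on average. For Rpe65 they were Ttr (r = 0.985), Myrf (0.985) and Car12 (0.970), for Lrat Slc16a8 (0.989), Myrf (0.980) and Ttr (0.967), and for Rgr Ttr (0.991), Myrf (0.985) and Slc16a8 (0.965). These 3 members therefore shared 2 of their 3 nearest genes, Ttr and Myrf. Rdh5 was nearest to Mfsd7c (0.992), Wdr43 (0.974) and Car12 (0.959), and Stra6 to Dcaf5 (0.985) and Cst6 (0.964). The Müller and photoreceptor members had other neighbours, led by Fbxo11 for Rlbp1 (0.945), Zfp365 for Rdh12 (0.964), Slc1a7 for Rdh8 (0.986), Smg5 for Abca4 (0.922) and Agpat3 for Rbp3 (0.923). These values of r are the highest of many genes over 10 libraries, and for the epithelial members vehicle 832 and 835 weigh most in them.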

How the data were processed

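The authors deposited raw read counts per Ensembl gene for 10 libraries, with gene lengths and mm10 coordinates. HTSeq 0.6.1, DESeq2, edgeR 3.16.5 and mm10 are named per the submitters' processing notes; aligner, annotation and strand setting: not given in the sources used here. Per the labels' protocols, Qiazol was used for extraction and standard Illumina methods for the libraries. The deposited counts had 1 column that matches no sample here, and it was not used.

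Libraries were grouped by the treatment label. After filterByExpr and TMM scaling, a model with a single group term was fitted in edgeR 4.0.16 under R 4.3.3 (glmQLFit, glmQLFTest), and p-values of 17435 genes were adjusted by Benjamini-Hochberg, with 0.05 as the threshold. Standard errors are the log2 fold change over the root of F. Intervals use the t distribution with the fit's degrees of freedom. CPM uses TMM library sizes, and log2 CPM a prior count of 2. Total counts of 36056135 to 54052502 gave a median standard error of 0.0875 (log2), and the common coefficient of variation was 0.191. Chi-square per degree of freedom between libraries of a group was 7.98 to 130, more than read sampling from a single library would give. It cannot show whether libraries came from separate animals, since uneven lens content also raises it. Correlations over libraries used 100000 permutations (scipy 1.17.1), whose smallest p is 1e-05, adjusted over the 10 members.

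The members and lists were chosen with earlier results of these data known. All 10 members are named, then up to 4 genes of smallest p in a list and the 3 genes most like each member (mean CPM of at least 1, passing over predicted genes, pseudogenes and members). Aqp4, Best1, Rrh, Pmel, Rdh10, Rdh11, Rdh14, Dhrs3, Lim2 and Gnat1 were named after their values were seen. The mean of 11 epithelial markers proved to follow the melanin genes, so the Ttr and Slc16a8 level and the fit without vehicle 832 and 835 were added after seeing the data. Alternatives covered normalization, filters, DESeq2 1.42.0, limma-voom (limma 3.58.1), added terms and left-out libraries. Scripts were tested on simulated data. Genes that these rules select but that are not reported here were passed over.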

Additional observations from a re-analysis of the deposited data

Results flagged for a closer look

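The highest and lowest library of each group was compared with its nearest neighbour, relative to the group's range, for 29 genes, which are the members, other retinoid genes and cell type markers. Of 58 groups 5 held a library apart from the others by Dixon's 95% critical value. For normally distributed values and genes chosen beforehand, chance gives about 1 in 20 groups, or 2.9 here. Some of these genes were chosen after their values were seen and some vary together, so that figure is only a rough guide. Vigabatrin 2347 had 4.69 CPM of Rpe65, against 0.404 to 1.27 CPM in the other vigabatrin libraries. The same library had 17.9 CPM of Rgr, against 2.51 to 6.79 CPM in the others of its group. Vehicle 835 had 235 CPM of Rdh12, against 281 to 295 CPM in the other vehicle libraries. Vigabatrin 2344 had 223 CPM of Pmel, against 0.712 to 30.5 CPM in the other vigabatrin libraries. It also had 7.01 CPM of Slc45a2, another melanin gene, against 0.231 to 0.523 CPM in the other vigabatrin libraries. Vehicle 832 and 835 both lay high for the epithelial members and so did not stand out singly by this measure.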

How the results depend on the processing

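The count of members called stayed at 0 of 10 under all 25 alternatives run. Lrat was not tested where a CPM of at least 1 was required in 5 libraries. Among the members' log2 fold changes under the alternatives, 231 kept their sign and 18 turned, and none passed the threshold. The sign turned for Rpe65 (0.15), Rdh5 (0.33) and Stra6 (0.18) with title number range as a term; for Rpe65 (0.38), Rdh5 (0.0398), Rgr (0.18) and Abca4 (0.00187) without vehicle 832 and 835; for Rpe65 (0.24), Rdh5 (0.14) and Rgr (0.15) with the Ttr and Slc16a8 term; and for Rpe65 (0.23), Rdh5 (0.10) and Rgr (0.16) with the melanin level beside it. Abca4 also turned with upper quartile scaling (0.0026) and without vigabatrin 2347 (0.00747), vehicle 832 (0.0122) or vehicle 2345 (0.0189), and Rbp3 without vehicle 2345 (0.00713). Leaving out single libraries gave -0.0494 to 0.0189 for Abca4 and -0.0537 to 0.00713 for Rbp3; the cause was not tested. Vehicle 835 and 1582 and vigabatrin 2344 had the highest Pmel, although vigabatrin 2344 had the lowest Rpe65. Without these libraries the values were -1.83 (Rpe65), -1.88 (Lrat), -1.62 (Rgr), -0.39 (Rdh5) and -0.44 (Stra6), with vehicle 832 still included.

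Over all genes, 1 was called higher and 0 lower. The count of higher genes was 0 with library size scaling, no filter, each of the 5 added terms, and each of the 3 fits without several libraries, 3 by limma-voom and 37 by DESeq2, which also called 49 lower. Leaving out single libraries gave 0 to 13 higher and 0 to 26 lower, the most without vehicle 2345. The number of members that passed the correlation was 1 with 11 markers, 5 with the 4 markers without melanin genes, 5 with Ttr and Slc16a8, 0 with the 7 melanin genes and 0 without vehicle 835. Rlbp1 then turned to r = 0.377 and 0.375 with 4 markers and with Ttr and Slc16a8. No paired analysis was possible because the groups share no replicate number. At 13 to 957 counts Lrat, and at 18 to 1584 counts Rpe65, leave the low libraries imprecise.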
